A study of Mus musculus with 8 samples.

Results

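The 9 genes described here are Odc1, Srm, Sms and Amd1 of synthesis, Sat1 and Smox of breakdown, and Oaz1, Oaz2 and Azin1, which control ornithine decarboxylase. They were found by symbol among 54532 genes of a mouse RNA-seq count table, in which each of the 9 symbols has a single row. All 9 passed the filter on low counts, which left 14428 genes for testing.

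Polyamines are small, positively charged molecules that bind RNA, DNA and proteins, and dividing cells need them to make protein. Putrescine is made from ornithine, and aminopropyl groups from decarboxylated S-adenosylmethionine turn it into spermidine and then spermine. The path is reversed by acetylation and oxidation. Its first enzyme, ornithine decarboxylase, is held in check by antizymes, which bind the enzyme and send it to the proteasome, and antizyme inhibitors release it. Activated T cells raise polyamine synthesis, and the pathway has been linked to how helper T cells choose between Th17 and regulatory fates.

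The cells were mouse spleen CD4 T cells, a primary culture sampled on day 2 of differentiation into pathogenic Th17 cells, the interleukin-17 producers tied to autoimmune inflammation. There were 4 libraries with the genotype label CYP1B1 knockout and 4 labelled WT, all under the same differentiation treatment. Cyp1b1 encodes a cytochrome P450, and the series title asks about its part in making these cells, in redox balance and in mitochondria. The labels give no strain, age, knockout allele or litter, nor do they tie replicates to separate animals or cultures. The p-values therefore reflect the variation among these 8 libraries, some of which could be technical.

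Cyp1b1 went against its label. It had 2179, 3169, 3007 and 2069 counts in the libraries labelled knockout, and 64, 34, 63 and 69 counts in those labelled wild type. Counts per gene do not show which exons were read, and whether the labels of the 2 groups were exchanged was not tested. Every direction below rests on these labels, and each fall and rise would turn if they were exchanged. Library totals ran from 8918342 to 15667313 counts. The lowest total belongs to wild type replicate 2. Markers of CD4 T cells summed to 3902 to 4065 CPM (counts per 1000000 counts of the library, TMM-scaled) in the libraries labelled knockout and 3662 to 3841 CPM in those labelled wild type. Of these 10 markers 2 passed, both higher. Th17 markers summed to 1542 to 2000 CPM in the libraries labelled knockout and 1703 to 2274 CPM in those labelled wild type, and of 9 tested 1 passed as higher and 4 as lower. B cell markers were far lower, at 127 to 147 CPM in the libraries labelled knockout and 211 to 307 CPM in those labelled wild type, and all 10 passed as lower. The 11 myeloid and dendritic markers summed to 18.6 to 28.1 CPM in the libraries labelled knockout and 43.2 to 46.9 CPM in those labelled wild type. Of these markers 3 of 4 tested passed as lower, and C1qa was at 0 in all 8 libraries. CD8 and NK markers summed to 18.3 to 22.2 CPM in the libraries labelled knockout and 18.3 to 22.6 CPM in those labelled wild type, with a median log2 fold change of 0.031 over the 4 tested. Erythroid markers summed to 2.98 to 4.84 CPM in the libraries labelled knockout and 1.60 to 3.53 CPM in those labelled wild type, and 1 of 3 tested passed as higher. The part of these cells in the polyamine results was not tested. In bulk RNA, fewer cells of a type and less RNA per cell cannot be told apart.

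The sequences shown next are the stretches of 2 antizyme transcripts where the reading frame shifts. Antizyme mRNAs carry an early stop codon that the ribosome passes only by slipping 1 base forward, which it does more often when polyamines are plentiful. The GENCODE M21 annotation of GRCm38 shows this by leaving 1 base out of the coding sequence, at chr10:80828295 for Oaz1 and at chr9:65686272 for Oaz2, both on the plus strand. Around that base the transcripts of the 2 genes read as follows, with the stop codon in capitals and its first base the one left out.
Oaz1: ggtggtgctccTGAtgtccctcacccacc
Oaz2: tgtggtgctccTGAtgcccctcacccact
The 2 windows share 26 of 29 bases. Gene counts cannot show how often the slip happened, so what follows for Oaz1 and Oaz2 concerns transcript level alone.

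Promoter windows, 250 bases before to 50 after the start, came from RefSeq (GRCm38.p6) and were found for 7 of the 9 genes, with 2 windows for Sms. Srm and Azin1 are not shown. Those of Odc1, Smox and Sat1 are shown because these enzymes stand at the start of synthesis or of breakdown and were lower in the libraries labelled knockout. Capitals mark GC boxes, the motif GGGCGG on either strand. The Odc1 window is chr12:17544623-17544922 on the plus strand, that of Smox chr2:131491612-131491911 on the plus strand, and that of Sat1 chrX:155216400-155216699 on the minus strand. The RefSeq start used for a window can differ from the start of the gene as counted. The Smox window lies wholly inside the counted gene, which starts at 131491496. The Oaz2 window and the second window of Sms also lie inside their genes.
Odc1: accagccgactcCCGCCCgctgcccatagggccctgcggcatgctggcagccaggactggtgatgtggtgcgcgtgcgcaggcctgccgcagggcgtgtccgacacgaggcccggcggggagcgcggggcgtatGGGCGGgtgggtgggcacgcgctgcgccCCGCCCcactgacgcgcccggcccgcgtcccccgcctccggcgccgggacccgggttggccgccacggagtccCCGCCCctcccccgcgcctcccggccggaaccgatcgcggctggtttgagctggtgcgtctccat
Smox: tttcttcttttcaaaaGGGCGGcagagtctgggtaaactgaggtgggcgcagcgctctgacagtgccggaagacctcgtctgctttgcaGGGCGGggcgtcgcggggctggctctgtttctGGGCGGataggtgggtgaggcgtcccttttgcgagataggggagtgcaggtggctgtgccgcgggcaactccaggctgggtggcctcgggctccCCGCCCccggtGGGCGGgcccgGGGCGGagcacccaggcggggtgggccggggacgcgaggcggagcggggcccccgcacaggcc
Sat1: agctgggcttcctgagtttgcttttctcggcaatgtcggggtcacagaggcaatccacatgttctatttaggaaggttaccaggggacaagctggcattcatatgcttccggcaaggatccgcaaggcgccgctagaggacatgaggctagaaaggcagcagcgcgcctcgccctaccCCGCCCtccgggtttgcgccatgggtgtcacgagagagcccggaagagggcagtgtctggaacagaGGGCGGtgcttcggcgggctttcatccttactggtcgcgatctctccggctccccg
There were 4 GC boxes in the Odc1 window, 6 in that of Smox and 2 in that of Sat1, and 6 of the 8 windows held at least 1, against 35.7% of 32851 promoter windows of this length. The E-box CACGTG, bound by MYC and its partners, was in 1 of 8 windows, the first of Sms (all windows, 7.15%). The ATF4 composite motif TGATGNAA was in none (all windows, 3.97%), and the TATA box motif TATAAA was in 1, that of Oaz1 (all windows, 13.6%). Both strands were searched, and the 3 last motifs do not occur in the windows shown. These matches describe letters and not sites of binding.

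The synthesis enzymes Odc1, Srm and Sms and the breakdown enzymes Sat1 and Smox fell in the libraries labelled knockout, while Amd1 and the 3 regulators did not pass. That is 5 of 9 genes lower and none higher at an adjusted p under 0.05 by edgeR's quasi-likelihood test, with a median log2 fold change of -0.33. At an unadjusted p under 0.05 it is 6 lower and 0 higher, and DESeq2 and limma-voom each called 5 lower and 0 higher. Over all 14428 tested genes 30.4% passed, 14.6% as lower and 15.7% as higher, with a median of -0.001. The changes were modest, between 20.2% and 26.3% down. In 4 of the 9 genes (Srm, Sms, Sat1 and Smox) every library labelled knockout lay below every library labelled wild type, a pattern seen in 14.1% of tested genes. Scaling by library totals in place of TMM made the split over all genes 1745 higher and 2689 lower, against 2272 and 2108 with TMM, and it kept the direction of each of the 9 genes. B cell and myeloid markers were lower in the same libraries, as given above.

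**Figure D1:**
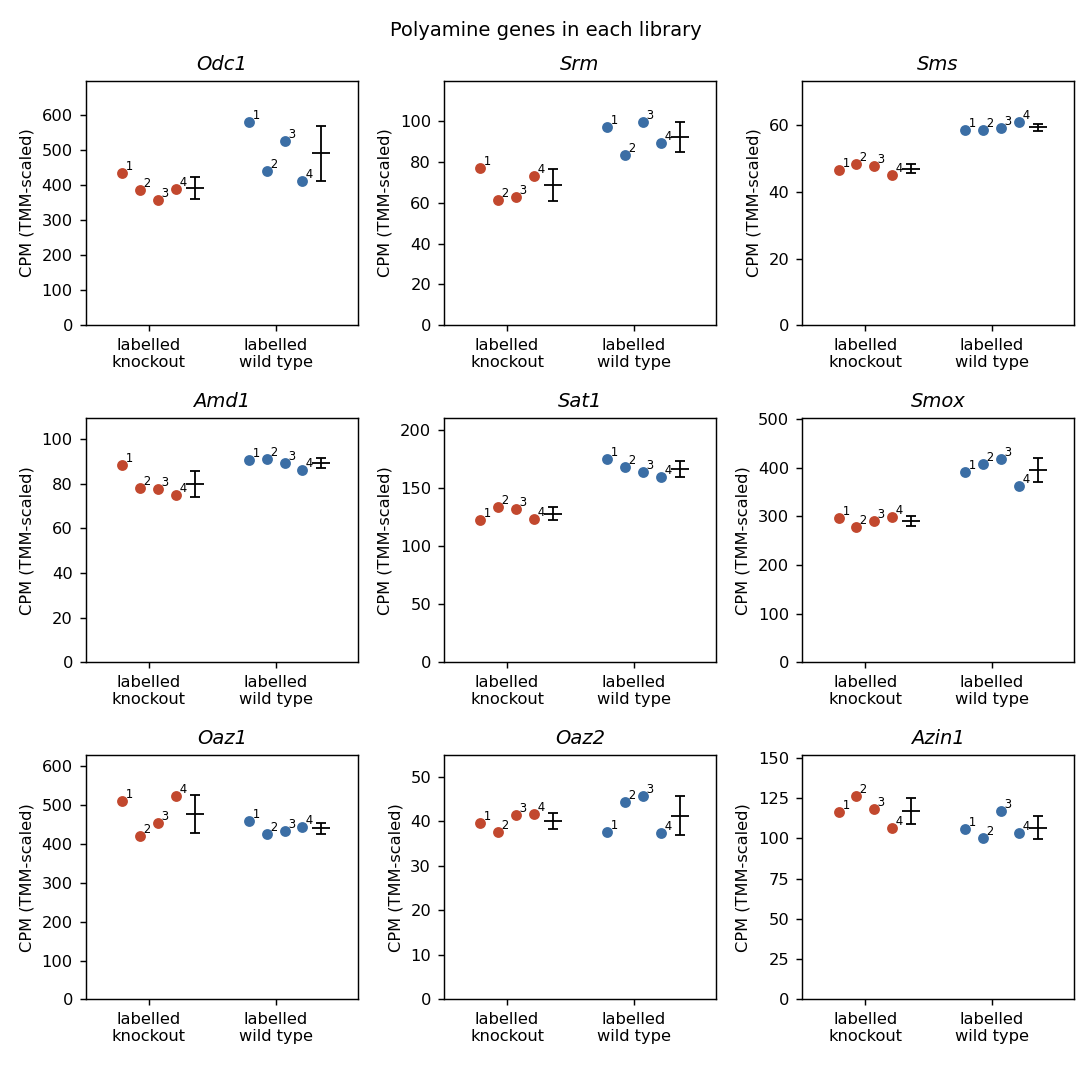
TMM-scaled CPM of the 9 polyamine genes in each library, with the 4 libraries labelled knockout on the left and the 4 labelled wild type on the right of each panel. Numbers are replicates, and bars give mean and SD. Srm, Sms, Sat1 and Smox separate the labels completely, and the other 5 genes overlap.

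Odc1, ornithine decarboxylase, is the rate-limiting enzyme of synthesis and lies on chromosome 12 at 17544794 to 17551505 (plus strand, GRCm38). It had 433, 385, 358 and 387 CPM in knockout replicates 1 to 4, and 580, 441, 526 and 412 CPM in wild type replicates 1 to 4. Of the libraries labelled knockout, 3 lay below all of those labelled wild type, and knockout 1 lay above wild type 4. Odc1 was also the most variable of the 9 within the wild type label, with a coefficient of variation of 15.8%. It fell by 0.33 on the log2 scale (SE 0.091, edgeR adjusted p = 0.0109), or fell by 20.2%. The Odc1 call ended without knockout 2 (-0.32, edgeR adjusted p = 0.061), without knockout 1 and 4 together (-0.39, 0.126) and without knockout 2 and 3 together (-0.25, 0.293).

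Srm, spermidine synthase, adds the first aminopropyl group and lies on chromosome 4 at 148591503 to 148594993 (plus strand). Its level was 77.2, 61.5, 62.8 and 73.1 CPM in knockout replicates 1 to 4 and 97.0, 83.4, 99.7 and 89.4 CPM in wild type replicates 1 to 4. The labels did not overlap, although knockout 1 and wild type 2 came near each other. Srm fell by 25.8% (log2 fold change -0.43, SE 0.081, edgeR adjusted p = 0.000307). Knockout 1 and 4 lay above knockout 2 and 3. Without knockout 1 and 4 together the log2 fold change was -0.57 (edgeR adjusted p = 5.93e-06). It was -0.29 (0.00532) without knockout 2 and 3 together.

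Sms, spermine synthase, adds the second aminopropyl group and lies on the X chromosome at 157443855 to 157492287 (minus strand). It was the steadiest of the 9 genes, at 46.6, 48.3, 47.7 and 45.2 CPM in knockout replicates 1 to 4 and 58.7, 58.5, 59.2 and 61.0 CPM in wild type replicates 1 to 4. The coefficient of variation was 2.88% in the libraries labelled knockout and 1.98% in those labelled wild type, and the labels stood well apart. Sms fell by 21.0% (log2 fold change -0.34, SE 0.071, edgeR adjusted p = 0.00085). A processed pseudogene, Sms-ps, had 33.6% as many counts as Sms, and its reads may be shared with it. With both rows added together the log2 fold change was -0.33 (edgeR adjusted p = 0.000609).

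Amd1, S-adenosylmethionine decarboxylase, makes the aminopropyl donor that both synthases use, and lies on chromosome 10 at 40287458 to 40302186 (minus strand). It had 88.3, 78.1, 77.8 and 75.1 CPM in knockout replicates 1 to 4, and 90.6, 91.1, 89.4 and 86.3 CPM in wild type replicates 1 to 4. Knockout 1 was the library that overlapped with the wild type label. The log2 fold change was -0.16 (95% interval -0.31 to -0.020), and with an edgeR adjusted p of 0.0763 Amd1 did not pass. It passed as lower without knockout 1 (-0.21, edgeR adjusted p = 0.0303), without knockout 1 and 4 together (-0.19, 0.0495), with library totals (-0.21, 0.0194) and with protein-coding genes alone (-0.18, 0.0454). Amd2, a near-identical gene, had 3.12% as many counts.

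Sat1, the acetyltransferase that marks spermidine and spermine for breakdown or export, is the rate-limiting enzyme of catabolism. It lies on the X chromosome at 155213132 to 155216449 (minus strand). It had 123, 134, 132 and 123 CPM in knockout replicates 1 to 4 and 175, 168, 164 and 159 CPM in wild type replicates 1 to 4, with a wide gap between the labels. Sat1 fell by 23.1% (log2 fold change -0.38, SE 0.064, edgeR adjusted p = 8.74e-05). Sms and Sat1 are both X-linked. All 8 libraries held Y-linked transcripts and almost no Xist, the RNA of the silenced X chromosome. Xist was at most 0.213 CPM, and Ddx3y ran from 83.0 to 118 CPM in the libraries labelled knockout and from 119 to 132 CPM in those labelled wild type. Of 4 Y-linked genes, 3 passed as lower, with the fourth, Kdm5d, at -0.18.

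Smox, spermine oxidase, turns spermine straight back into spermidine and releases hydrogen peroxide. It lies on chromosome 2 at 131491496 to 131525922 (plus strand). It had 296, 278, 290 and 299.5 CPM in knockout replicates 1 to 4 and 390.2, 408, 418 and 362 CPM in wild type replicates 1 to 4. The highest library labelled knockout lay well below the lowest labelled wild type. Smox fell by 26.3% (log2 fold change -0.44, SE 0.062, edgeR adjusted p = 9.96e-06), and its fall and that of Srm differed by less than their standard errors.

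**Figure D2:**
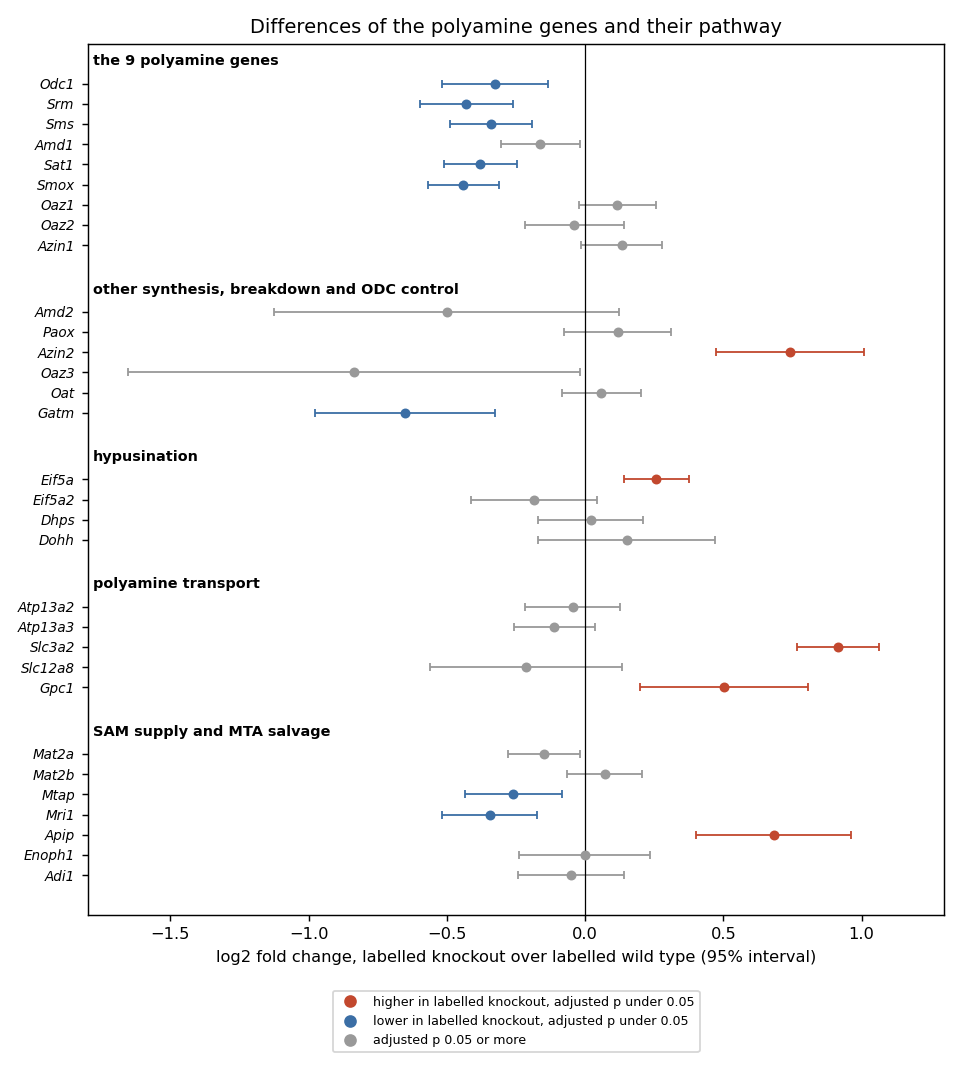
Log2 fold changes (labelled knockout over labelled wild type) with 95% intervals for the 9 polyamine genes and for 22 other tested genes of the pathway, in 4 lists. Colour gives the call by edgeR's quasi-likelihood test. The enzymes Odc1, Srm, Sms, Sat1 and Smox lie between -0.33 and -0.44, and the other lists hold genes on either side of 0.

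The 3 regulators of ornithine decarboxylase had small and uncertain differences. Oaz1, the main antizyme, lies on chromosome 10 at 80826656 to 80829290 (plus strand). It had 510.1, 421, 455 and 524 CPM in knockout replicates 1 to 4, and 458.5, 426, 434 and 444 CPM in wild type replicates 1 to 4. Knockout 1 and 4 lay above every library labelled wild type and knockout 2 below them all. The log2 fold change was 0.12 (95% interval -0.022 to 0.26, edgeR adjusted p = 0.199), and it did not pass. It passed as higher without knockout 2 (0.18, edgeR adjusted p = 0.0353) and without knockout 2 and 3 together (0.24, 0.00249), while without knockout 1 and 4 together it stood at -0.002 (adjusted p = 0.986). Oaz1-ps, a processed pseudogene, had 1.36% as many counts.

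Oaz2, a second antizyme of lower abundance, lies on chromosome 9 at 65668001 to 65690300 (plus strand). It had 39.7, 37.6, 41.3 and 41.6 CPM in knockout replicates 1 to 4 and 37.6, 44.4, 45.6 and 37.4 CPM in wild type replicates 1 to 4. All 4 libraries labelled knockout lay within the range of the wild type label. The log2 fold change was -0.040 (95% interval -0.22 to 0.14, edgeR adjusted p = 0.763), and it did not pass.

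Azin1, antizyme inhibitor 1, is a relative of ornithine decarboxylase without its activity that binds antizyme. It lies on chromosome 15 at 38487427 to 38519266 (minus strand). It had 117, 126, 118 and 107 CPM in knockout replicates 1 to 4, and 106, 100.02, 117 and 104 CPM in wild type replicates 1 to 4. Knockout 2 and 3 lay above every library labelled wild type, and wild type 3 lay above the other libraries of its label. The log2 fold change was 0.13 (95% interval -0.014 to 0.28, edgeR adjusted p = 0.164). It passed as higher without knockout 1 and 4 together (0.20, edgeR adjusted p = 0.042).

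Levels of different genes can be compared only per length, here as CPM per kb of the deposited gene length. That length was 2558 bases for Oaz1, 3405 for Odc1 and 6010 for Sms. It may differ from the length of the transcripts in these cells, by a different factor for each gene. The order below rests on it, and for Sms also on how reads were shared with Sms-ps. In the libraries labelled knockout the order was Oaz1 (187 ± 18.7), Odc1 (115 ± 9.13), Smox (74.7 ± 2.47), Sat1 (46.2 ± 2.15), Srm (42.9 ± 4.83), Amd1 (22.5 ± 1.64), Azin1 (18.7 ± 1.29), Oaz2 (13.4 ± 0.616) and Sms (7.81 ± 0.225) CPM per kb (mean ± SD, n = 4 libraries). In the libraries labelled wild type the order was the same, with Oaz1 at 172 ± 5.51, Odc1 at 144 ± 22.7, Smox at 101 ± 6.35, Sat1 at 60.0 ± 2.42, Srm at 57.8 ± 4.63 and Sms at 9.87 ± 0.195 CPM per kb. Sat1 and Srm overlapped over the libraries of either label, so their order is not resolved. Oaz1 and Odc1 overlapped in the libraries labelled wild type and not in those labelled knockout. All other neighbours in the order were apart in both labels.

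**Figure D3:**
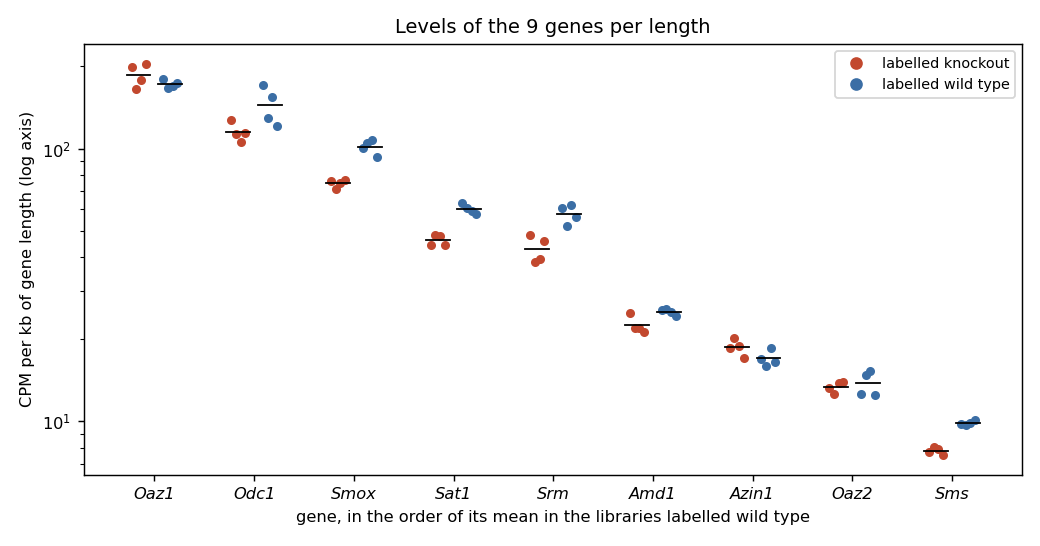
CPM per kb of gene length (log axis) of the 9 polyamine genes, with libraries labelled knockout left and libraries labelled wild type right for each gene, and lines at the means. The order of means is the same in both labels, and only in the libraries labelled wild type do Oaz1 and Odc1 overlap.

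Ratios within a library, which do not depend on scaling between libraries, are given as descriptions with no test. Their size depends on the deposited gene lengths, and their comparison between labels does not. Odc1 over Oaz1, on CPM per kb, was 0.638, 0.687, 0.591 and 0.555 in knockout replicates 1 to 4, and 0.951, 0.777, 0.912 and 0.698 in wild type replicates 1 to 4. Per kb of deposited length, the transcript of the enzyme was thus below that of its antizyme in all 8 libraries. On CPM alone, Odc1 was above Oaz1 in wild type 1, 2 and 3 and below it in the other libraries. The ratio was lower in every library labelled knockout than in any labelled wild type. Knockout 2 and wild type 4 were close, at 0.687 and 0.698. Odc1 over Azin1 was 5.58 to 6.83 in the libraries labelled knockout and 7.31 to 10.08 in those labelled wild type, again without overlap. The ratio of inhibitor to antizyme, Azin1 over Oaz1, averaged 0.101 ± 0.0170 in the libraries labelled knockout and 0.0989 ± 0.00740 in those labelled wild type (SD, n = 4 each) and overlapped. So did 2 ratios among the enzymes that fell. Smox over Sms was 9.57 ± 0.578 in the libraries labelled knockout and 10.27 ± 0.801 in those labelled wild type. Srm over Sms was 5.51 ± 0.747 in the libraries labelled knockout and 5.85 ± 0.493 in those labelled wild type.

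Around the 9 genes, 29 other genes of polyamine metabolism were followed in 4 lists, of which 22 were tested. In the libraries labelled knockout 5 of them rose, 3 fell and 14 did not pass, with a median log2 fold change of -0.023 (background as above, 15.7% higher and 14.6% lower). Without knockout 2, and likewise without knockout 2 and 3 together, 5 were higher and 5 lower. Without knockout 1 and 4 together, 4 were higher and 1 lower. The 7 untested genes, Arg1 and Arg2 among them, averaged at most 0.52 CPM.

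The list of other enzymes and regulators had 1 higher, 1 lower and 4 not passed of 6 tested. Azin2, a second antizyme inhibitor, rose to 14.1 ± 1.61 CPM in the libraries labelled knockout, against 8.38 ± 0.80 CPM in those labelled wild type (SD, n = 4 each; log2 fold change 0.74, SE 0.13, edgeR adjusted p = 0.000133). It stood far below Azin1 per length, at 3.49 CPM per kb in the libraries labelled knockout and 2.08 in those labelled wild type. Gatm, which moves the amidino group of arginine to glycine in creatine synthesis and leaves ornithine, fell to 53.2 ± 7.77 CPM in the libraries labelled knockout, against 83.4 ± 17.2 CPM in those labelled wild type (log2 fold change -0.65, edgeR adjusted p = 0.00653). The Gatm call ended without knockout 1 and 4 together (-0.48, edgeR adjusted p = 0.192).

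Of 4 genes of hypusination, the spermidine-dependent modification of the translation factor eIF5A, 1 rose and 3 did not pass, with values from -0.19 to 0.15. The gene that rose was Eif5a itself, with 1189, 1110.0, 1158 and 1124 CPM in knockout replicates 1 to 4 and 974, 883, 1000.0 and 973 CPM in wild type replicates 1 to 4. The labels did not overlap (log2 fold change 0.26, SE 0.057, edgeR adjusted p = 0.00138). Dhps and Dohh, the enzymes that make hypusine, were among those that did not pass.

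Of 5 tested genes of polyamine transport, 2 rose and 3 did not pass, with values from -0.21 to -0.045. Slc3a2, the heavy chain of amino acid transporters that has also been tied to polyamine export, rose to 209 ± 17.1 CPM in the libraries labelled knockout against 111 ± 7.27 CPM in those labelled wild type (SD, n = 4 each; log2 fold change 0.92, SE 0.071, edgeR adjusted p = 1.62e-09). Gpc1, a glypican linked to polyamine uptake, rose to 11.8 ± 1.26 CPM in the libraries labelled knockout against 8.26 ± 1.66 CPM in those labelled wild type (log2 fold change 0.50, edgeR adjusted p = 0.0118). The Gpc1 call ended without wild type 2 (edgeR adjusted p = 0.0511), without wild type 3 (0.0537) and without knockout 1 and 4 together (0.113).

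Of 7 tested genes that supply S-adenosylmethionine or salvage methylthioadenosine, the by-product of both synthases, 1 rose, 2 fell and 4 did not pass. Mtap, which cleaves methylthioadenosine, fell to 35.6 ± 2.08 CPM in the libraries labelled knockout against 42.4 ± 3.64 CPM in those labelled wild type (log2 fold change -0.26, edgeR adjusted p = 0.0233). Mri1, the next enzyme, fell to 58.8 ± 6.13 CPM in the libraries labelled knockout against 74.7 ± 6.11 CPM in those labelled wild type (log2 fold change -0.35, edgeR adjusted p = 0.00278). Apip, the one after, rose to 10.9 ± 0.711 CPM in the libraries labelled knockout against 6.76 ± 0.603 CPM in those labelled wild type (log2 fold change 0.68, edgeR adjusted p = 0.000511; SD, n = 4 each). Of the later salvage enzymes, Enoph1 (-0.001) and Adi1 (-0.052 log2 fold change) did not pass. The Mtap call ended without knockout 3 or 4 or wild type 1, 3 or 4 (edgeR adjusted p from 0.0565 to 0.0788), without knockout 1 and 4 together (0.101) and with no low-count filter (0.0934).

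By the rule for genes most like Odc1 in pattern over the 8 libraries, among 8887 others with at least 10 CPM, the highest Pearson correlations of log2 CPM were those of Nip7 (0.973), Pdcd11 (0.964) and Hyou1 (0.96). For Sat1 they were Ccnl2 (0.995), Snhg1 (0.989) and Naa30 (0.988). All 8 points share the split by label and the same scaling, so these are descriptions only. Nip7 averaged 42.8 ± 2.28 CPM in the libraries labelled knockout and 49.7 ± 3.48 CPM in those labelled wild type, and Ccnl2 355 ± 25.9 CPM in the libraries labelled knockout and 537 ± 31.2 CPM in those labelled wild type (SD, n = 4 each).

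**Figure D4:**
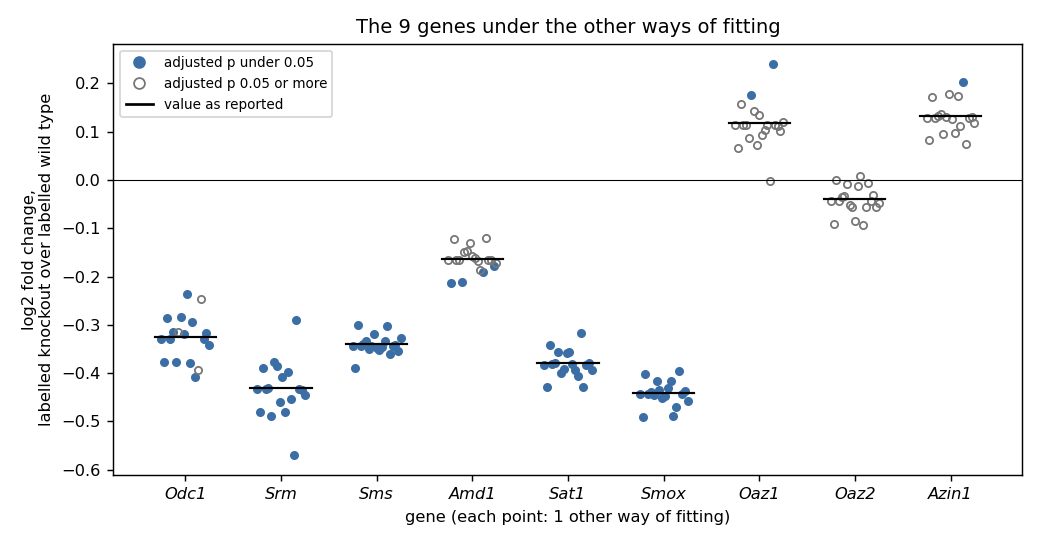
Log2 fold changes of the 9 polyamine genes (labelled knockout over labelled wild type) under each other way of fitting, with filled points for an adjusted p under 0.05 and lines at the value as reported. Srm, Sms, Sat1 and Smox stay at or below -0.29 and passed in every fit shown, and Odc1 did not pass in 3.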

How the data were processed

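RNA was sequenced from 4 libraries labelled knockout and 4 labelled wild type. Libraries were made from polyadenylated RNA, fragmented and primed with random hexamers, without a named strand-marking step, per the labels' protocols. The authors deposited raw counts per gene with gene length in bases and positions. fastp is named per the submitters' processing notes; for aligner, counter, annotation and strand setting the entry is: not given in the sources used here. Of 54532 gene identifiers, 54495 were found in GENCODE M21 and 53585 had the same start and end, all 9 polyamine genes among them, so positions are GRCm38. Genes overlapping one of the 9 in position held at most 0.164% as many counts.

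The tests ran in edgeR 4.0.16 under R 4.3.3 (filterByExpr with minimum count 10 and minimum total 15, TMM scaling, robust quasi-likelihood F-test of genotype alone, two-sided, Benjamini-Hochberg over all tested genes, threshold 0.05). Each SE was obtained by dividing the fold change (log2) by the root of F. Alternatives used DESeq2 1.42.0 and limma 3.58.1. No 2 replicates of a label agreed within counting noise (chi-square averaged per gene, 3.69 to 12.3), so none was merged as a repeat deposit of another. This does not show that they came from separate animals or cultures. Among the libraries labelled knockout, 1 and 4 (4.4) and 2 and 3 (3.84) were closer to each other than the other pairs (8.27 to 12.3). These are the pairs left out together in the alternatives. The cause of this split was not tested. Reads carry no molecular identifiers. The steps were also run on simulated data in which 200 genes were changed, fewer than the 4380 that passed here. The simulated libraries had no split within a label, so that run does not cover the split seen here.

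The polyamine genes, the pathway and marker lists and the alternatives were chosen with earlier results of these data known. The 9 genes were always named, as was Cyp1b1; of each pathway list, up to 3 called genes with the smallest p; and the 3 genes most like Odc1 and Sat1, with a mean of at least 10 CPM, leaving out predicted names. Kdm5d, Ddx3y, Xist, C1qa, Arg1, Arg2, Dhps, Dohh, Enoph1 and Adi1 were named after their values were seen.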

Additional observations from a re-analysis of the deposited data

Results flagged for a closer look

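Of 60 groups of 4 libraries examined for a library far from the others, 3 had one, where chance gives about 1 in 20. Knockout 4 had 16.5 CPM of Azin2, against 13.2 to 13.3 CPM in the other libraries labelled knockout. Wild type 2, the library with the lowest total, had 37.0 CPM of Mtap, against 43.8 to 44.7 CPM in the others of its label. Wild type 3 had a ratio of Azin1 over Oaz1 of 0.11 on CPM per kb, against 0.0943 to 0.0960 in the others of its label.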

How the results depend on the processing

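Under 19 alternatives, 5 or 6 of the 9 polyamine genes passed (5 to 6 with each library left out in turn), and Srm, Sms, Sat1 and Smox passed as lower in each. With library totals, without knockout 1 and with protein-coding genes alone, all 5 main calls stayed and Amd1 was added as lower. In 3 other fits Odc1 lost its call, each sharing 4 calls with the main fit. Without knockout 2, and without knockout 2 and 3 together, 4 were lower and 1 higher. Without knockout 1 and 4 together, 5 were lower and 1 higher. The fits that changed the call of Odc1, Amd1, Oaz1 or Azin1 are given with those genes, and the cause was not tested. Directions turned for Oaz1 without knockout 1 and 4 together (-0.002) and for Oaz2 without wild type 3 (0.009; -0.093 to 0.009 with each library left out), neither of them called. Of the other pathway genes, 6 to 10 passed with each library left out, and 5 in place of 8 without knockout 1 and 4 together, a fit with fewer libraries. Over all genes 3559 to 4679 passed with each library left out. Same-numbered libraries correlated weakly in their deviations, at 0.05 to 0.09, and the other pairs at -0.09 to 0.06. Knockout 2 correlated at 0.06 with wild type 3 and at 0.05 with wild type 2. Correlations this small and overlapping cannot decide whether replicate numbers pair the libraries. The edgeR adjusted p of Odc1 was 0.000277 with a block for replicate number, against 0.0109 with none. With the replicate block, 5 of the 9 genes, 8 other pathway genes and 4936 genes in all passed, against 5, 8 and 4380 with no block. With no low-count filter, calls over all genes were 2610 higher and 1815 lower. The lowest count of any of the 9 genes in any library was 403, and genes under the low-count filter were not tested.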
